A study of Homo sapiens with 8 samples.

Results

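The collagen, laminin and basement membrane genes described here are 10 genes picked by Ensembl ID from the 60666 gene IDs of a microRNA pulldown count table. The collagens are COL4A1 (ENSG00000187498), COL4A2 (ENSG00000134871), COL5A1 (ENSG00000130635), COL6A1 (ENSG00000142156) and COL6A2 (ENSG00000142173). The laminin chains are LAMB1 (ENSG00000091136), LAMB2 (ENSG00000172037), LAMC1 (ENSG00000135862) and LAMA5 (ENSG00000130702), and the proteoglycan is HSPG2 (ENSG00000142798). The deposited table holds IDs only, so the symbols are those given with the IDs when the set was chosen. The RNA came from 786-0 cells, an established human line from a clear cell renal carcinoma that lacks a working VHL gene. Every library came from this 1 line. The cells had been transfected for 48 hours with biotinylated synthetic microRNA duplexes, and the RNA held with each duplex was retrieved and sequenced, with enriched transcripts taken by the submitters as candidate targets. The groups were miR-2355 (miR-2355-5p duplex, 2 libraries), miR-1271 (miR-1271-5p duplex, 3 libraries) and a control microRNA whose sequence the labels do not give (3 libraries). Nothing in the labels ties replicates to separate cultures. The p-values therefore set a difference between groups only against the spread of these libraries, which may be technical. No RNA from before the pulldown was used here, so a changed level in the cells, fewer cells and a changed recovery cannot be told apart. Markers of epithelial or other cell types were not checked, since the table pairs no ID with a symbol.

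Basement membranes are thin sheets of extracellular matrix under epithelia and around vessels, and in the kidney they form part of the filter of the glomerulus and surround the tubules. A laminin is a trimer of an alpha, a beta and a gamma chain that polymerises at the cell surface, type IV collagen forms a second network, and perlecan, the heparan sulfate proteoglycan encoded by HSPG2, binds both. Types V and VI collagen belong mostly to the interstitial matrix, where type V is built into collagen fibrils and type VI forms beaded microfilaments close to basement membranes. A microRNA guides Argonaute to transcripts mainly by pairing of its seed, the bases near its 5′ end, with sites that lie mostly in the 3′ part of messenger RNAs.

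The mature sequences of both microRNAs are shown, 5′ to 3′ from RefSeq (GRCh38.p14), because seed pairing is what such a pulldown is meant to capture; bases 2 to 8, the seed, are in capitals.
hsa-miR-2355-5p: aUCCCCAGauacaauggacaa
hsa-miR-1271-5p: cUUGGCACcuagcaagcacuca
The first lies on the minus strand at chr2:207110043-207110063 and the second on the plus strand at chr5:176367960-176367981. The seeds, UCCCCAG and UUGGCAC, differ. Transcript sequences were not used here, so sites for these seeds in the 10 genes were not searched.

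Counted reads per library were 18637410 and 14924700 for miR-2355, 10358878, 10959081 and 13119672 for miR-1271, against 22864693, 4122875 and 20722317 for the control. The 10 genes together took 0.499% and 0.458% of the reads with miR-2355, 0.453%, 0.435% and 0.456% with miR-1271, against 0.456%, 0.342% and 0.378% with the control. Control replicate 1 lay within the range of the microRNA libraries, while control replicates 2 and 3 lay below all of them. Of the 10 genes, 9 passed the filter on low counts and COL5A1 did not. The control libraries differed among themselves in a common direction: replicate 1 was the highest of the 3 for 9 of the 9 tested genes, and replicate 2, the shallowest library, was the lowest for 8 of 9. The counts, medians and member values that move most with control replicate 1 or 2 are therefore also given without that library.

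With miR-2355, 1 of the 9 tested genes, COL4A1, was higher than with the control, and none was lower. With miR-1271, 4 of 9 were higher, LAMA5, HSPG2, LAMB2 and COL4A1, and none was lower. These calls are at an edgeR quasi-likelihood adjusted p under 0.05 in a fit of 17351 genes. Across those 17351, the calls in the miR-2355 pulldown were a rise for 12.3% and a fall for 17.5%. In the miR-1271 pulldown they were a rise for 17.6% and a fall for 22.5%. The single rise with miR-2355 (11.1% of the tested members) is thus close to the share over all genes, and the 4 rises with miR-1271 are 44.4% of the tested members. Among the 6598 genes at least as abundant as the faintest tested member, a rise was called for 20.2% in the miR-2355 pulldown and for 27.7% in the miR-1271 pulldown. A fall was called for 21.0% and 26.4% of them. All libraries of the pulldown lay above all controls for 3 of the 9 members with miR-2355 (COL4A1, COL4A2 and HSPG2), beside 24.9% of all tested genes. The same held for 3 of 9 with miR-1271 (COL4A1, LAMA5 and HSPG2), beside 23.1%. These placings are in TMM-scaled CPM, and that of COL4A1 with miR-1271 did not hold by library totals. None of the 9 lay below all controls in either pulldown, beside 27.8% of all tested genes for miR-2355 and 26.8% for miR-1271. For miR-2355 over control the 9 members had a median log2 fold change of 0.09, beside -0.0046 over all tested genes, and a median absolute log2 fold change of 0.12, beside 0.37. For miR-1271 over control the members' median was 0.27, beside 0.0055 over all tested genes, and their median absolute value 0.27, beside 0.42. The values over all tested genes include many fainter genes, and absolute values were not compared at like abundance. Single controls moved both counts and medians. Without control replicate 1, 4 members were called higher in the miR-2355 pulldown, 6 were in that of miR-1271, and the medians were 0.20 and 0.46. Without control replicate 2, 1 and 2 members were called higher, and the medians were -0.012 and 0.17. With library totals in place of TMM, the median with miR-1271 was 0.13. Both contrasts share the 3 control libraries, so a high or low control moves them together.

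**Figure D1:**
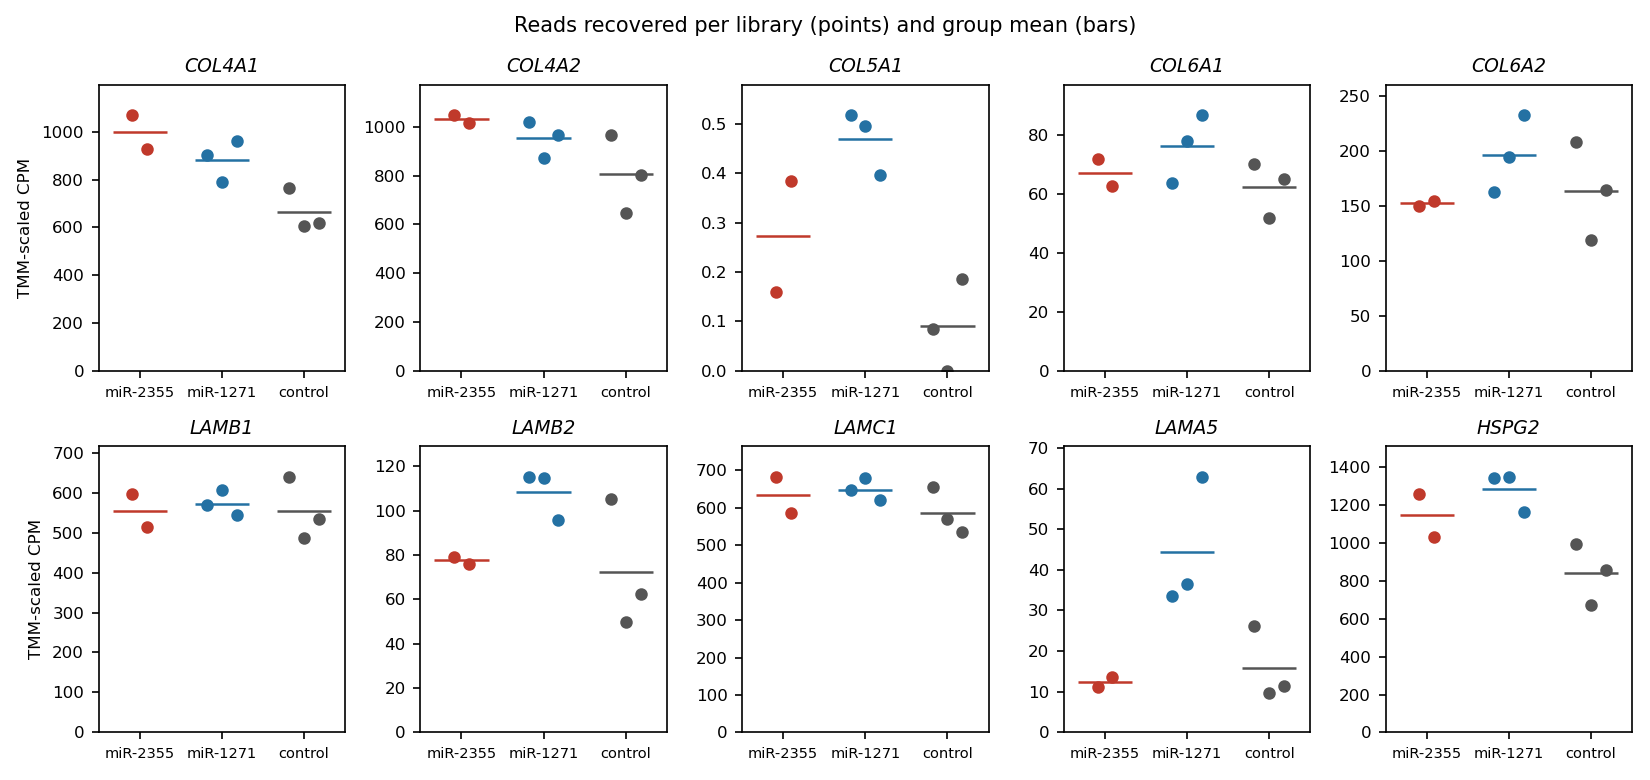
TMM-scaled CPM (linear axes from 0) of the 10 genes in the 2 miR-2355, 3 miR-1271 and 3 control libraries; points are libraries in replicate order and bars are group means. COL4A1 and HSPG2 lie above all controls in both pulldowns, LAMA5 is high with miR-1271, with libraries at 33.5 to 62.9 CPM, and COL5A1 stays under 0.6 CPM in every library.

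COL4A1 and COL4A2 encode the chains of the most widespread type IV collagen, which assemble in a single trimer. On the scale of TMM-scaled CPM (reads of a gene per 1000000 reads of a library), COL4A1 stood at 1069 and 928 CPM with miR-2355, at 902, 789 and 959 CPM with miR-1271, and at 765, 605 and 619 CPM with the control. All 5 microRNA libraries lay above all 3 control libraries, although the gap between miR-1271 replicate 2 and control replicate 1 was small. Such a separation held for 14.4% of all tested genes, and among the 9 members for COL4A1 and HSPG2. COL4A1 rose 1.51-fold with miR-2355 (log2 fold change 0.59 ± 0.16, SE; 95% interval 0.26 to 0.92; edgeR adjusted p = 0.00995) and 1.33-fold with miR-1271 (0.41 ± 0.14, SE; 0.11 to 0.72; edgeR adjusted p = 0.0300). The call with miR-2355 was lost without miR-2355 replicate 1 (0.51, edgeR adjusted p = 0.0975), where the lone library left is taken to vary as the other groups do. The call with miR-1271 was less firm: it was lost without miR-1271 replicate 1 or 3 or control replicate 2 or 3 (0.35 to 0.41, adjusted p from 0.0847 to 0.122), and with library totals in place of TMM (0.27, adjusted p = 0.161).

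COL4A2 was read at 1047 and 1016 CPM with miR-2355, at 1019, 873 and 968 CPM with miR-1271, and at 968, 645 and 804 CPM with the control. Both miR-2355 libraries exceeded every control, while the miR-1271 libraries overlapped control replicate 1. Neither contrast passed: the log2 fold change was 0.36 ± 0.17 (SE; edgeR adjusted p = 0.127) with miR-2355 and 0.24 ± 0.15 (SE; adjusted p = 0.223) with miR-1271. Both values moved with single controls. Without control replicate 1 both passed, at 0.51 (edgeR adjusted p = 0.0176) and 0.39 (adjusted p = 0.0315), and without control replicate 2 they were 0.22 (adjusted p = 0.350) and 0.10 (adjusted p = 0.625). With library totals the value with miR-1271 was 0.094 (edgeR adjusted p = 0.661).

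The COL4A pair lies head to head on chromosome 13, COL4A1 at chr13:110148963-110307157 on the minus strand and COL4A2 at chr13:110307284-110513209 on the plus strand, with 126 bases between their annotated starts. This shared stretch is shown because the pair of transcripts compared here begins at its ends. It is given on the plus strand from the first base of COL4A1 to that of COL4A2 (RefSeq, GRCh38.p14, chr13:110307157-110307284), with matches to CCAAT and to GGGCGG, the GC box, in capitals.
COL4A1-COL4A2 start to start: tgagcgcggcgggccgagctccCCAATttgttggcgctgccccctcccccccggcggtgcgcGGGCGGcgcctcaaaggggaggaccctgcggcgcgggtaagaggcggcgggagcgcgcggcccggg
It held 1 match to each motif, read on both strands, and the 2 matches do not overlap. Of 35116 promoter windows of 300 bases, 34.6% held CCAAT and 44.95% the GC box. Of the 9 members with a promoter window in that table, the GC box was in 9 and CCAAT in COL4A1 and COL4A2 alone, where the match is the same one. G and C made up 58.67% of the LAMB2 window and from 71% (LAMB1) to 83.33% (HSPG2) of the rest. The share with a GC box was not compared among windows of like base content.

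The ratio of COL4A1 to COL4A2 reads within a library does not depend on scaling between libraries. It was 1.02 and 0.914 with miR-2355, 0.885, 0.904 and 0.991 with miR-1271, against 0.791, 0.938 and 0.770 with the control. Control replicate 2 lay among the microRNA libraries and the other controls below them. The log2 difference of the ratio was 0.22 for miR-2355 over control and 0.16 for miR-1271 over control, each with an exact permutation p of 0.3 (two-sided; n = 2 against 3 and 3 against 3; the smallest either design allows is 0.1). No difference in the ratio passed in either contrast.

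HSPG2 gave the most reads of the 10 genes, from 2957 in control replicate 2 to 23630 in miR-2355 replicate 1, so its counting error is small beside the spread between libraries. It stood at 1262 and 1030 CPM with miR-2355, at 1343, 1351 and 1167 CPM with miR-1271, and at 993, 675 and 858 CPM with the control. All 5 microRNA libraries were above all controls. It rose 1.53-fold with miR-1271 (log2 fold change 0.61 ± 0.16, SE; 95% interval 0.27 to 0.95; edgeR adjusted p = 0.00584). It passed there under all 17 alternative settings run, at 0.46 to 0.74, including those without a miR-2355 library, which hardly bear on this contrast. With miR-2355 it missed the threshold (0.44 ± 0.18, SE; 95% interval 0.07 to 0.82; edgeR adjusted p = 0.0673). It passed there with DESeq2 (0.47, adjusted p = 0.0179), with upper-quartile factors (0.52, adjusted p = 0.0371), without the low-count filter (0.46, adjusted p = 0.0307) and without control replicate 1 (0.58, adjusted p = 0.0134). It was lower without miR-2355 replicate 1 (0.31, edgeR adjusted p = 0.380) and without control replicate 2 (0.31, adjusted p = 0.199). The miR-2355 and miR-1271 pulldowns did not differ detectably in HSPG2 (log2 difference, miR-2355 over miR-1271, -0.17, 95% interval -0.54 to 0.21).

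LAMC1 and LAMB1 encode the gamma and beta chains found in most laminin trimers. LAMC1 was read at 683 and 586 CPM with miR-2355, at 646, 678 and 622 CPM with miR-1271, and at 654, 571 and 536 CPM with the control. LAMB1 was read at 597 and 513 CPM with miR-2355, at 569, 605 and 544 CPM with miR-1271, and at 640, 488 and 535 CPM with the control. In both genes the groups overlapped throughout. LAMB1 had a log2 fold change of 0.00026 with miR-2355 (edgeR adjusted p = 0.999) and 0.05 with miR-1271 (adjusted p = 0.813), and LAMC1 had 0.11 (adjusted p = 0.608) and 0.14 (adjusted p = 0.406). The 95% intervals bound what these libraries could hide: for LAMB1 they ran from 0.800-fold to 1.25-fold with miR-2355 and from 0.845-fold to 1.26-fold with miR-1271, and for LAMC1 from 0.871-fold to 1.34-fold and from 0.911-fold to 1.34-fold.

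LAMB1 and LAMC1 kept nearly the same read ratio in every microRNA library, at 0.873 and 0.875 with miR-2355 and at 0.880, 0.892 and 0.875 with miR-1271. The control libraries were wider apart, at 0.978, 0.853 and 0.999. Those values surround the microRNA libraries, and neither contrast with the control passed (exact permutation p = 0.4 in each, two-sided; n = 2 against 3 and 3 against 3).

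LAMB2, a laminin beta chain of the glomerular basement membrane and of vessels, stood at 79.2 and 76.1 CPM with miR-2355, at 115, 115 and 95.9 CPM with miR-1271, and at 105, 49.96 and 62.4 CPM with the control. Control replicate 1 lay inside the miR-1271 range and the other 2 controls lay below both pulldowns. LAMB2 rose 1.47-fold with miR-1271 (log2 fold change 0.56 ± 0.19, SE; 95% interval 0.15 to 0.96; edgeR adjusted p = 0.0297), and with miR-2355 it had 0.07 ± 0.21 (SE; adjusted p = 0.834). Both values moved with single controls. Without control replicate 1 the log2 fold change was 0.93 with miR-1271 (edgeR adjusted p = 3.97e-05) and 0.45 with miR-2355 (adjusted p = 0.0258). The miR-1271 call was lost without control replicate 2 or 3 (0.37 and 0.45, adjusted p = 0.0920 and 0.133), without miR-1271 replicate 1 or 2 (0.53 in each, adjusted p = 0.0821 and 0.0817), and with library totals (0.41, adjusted p = 0.0867).

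Within libraries, LAMB2 reads were 0.133 and 0.148 of LAMB1 reads with miR-2355, 0.203, 0.189 and 0.176 with miR-1271, against 0.164, 0.102 and 0.117 with the control. The 3 miR-1271 libraries lay above the other 5. The exact permutation p was 0.1 for miR-1271 over control and 0.1 for miR-2355 over miR-1271 (two-sided; n = 3 against 3 and 2 against 3), the smallest these designs allow, and 0.3 after adjustment over the 18 ratio comparisons made. These ratios were chosen after the counts had been seen.

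**Figure D2:**
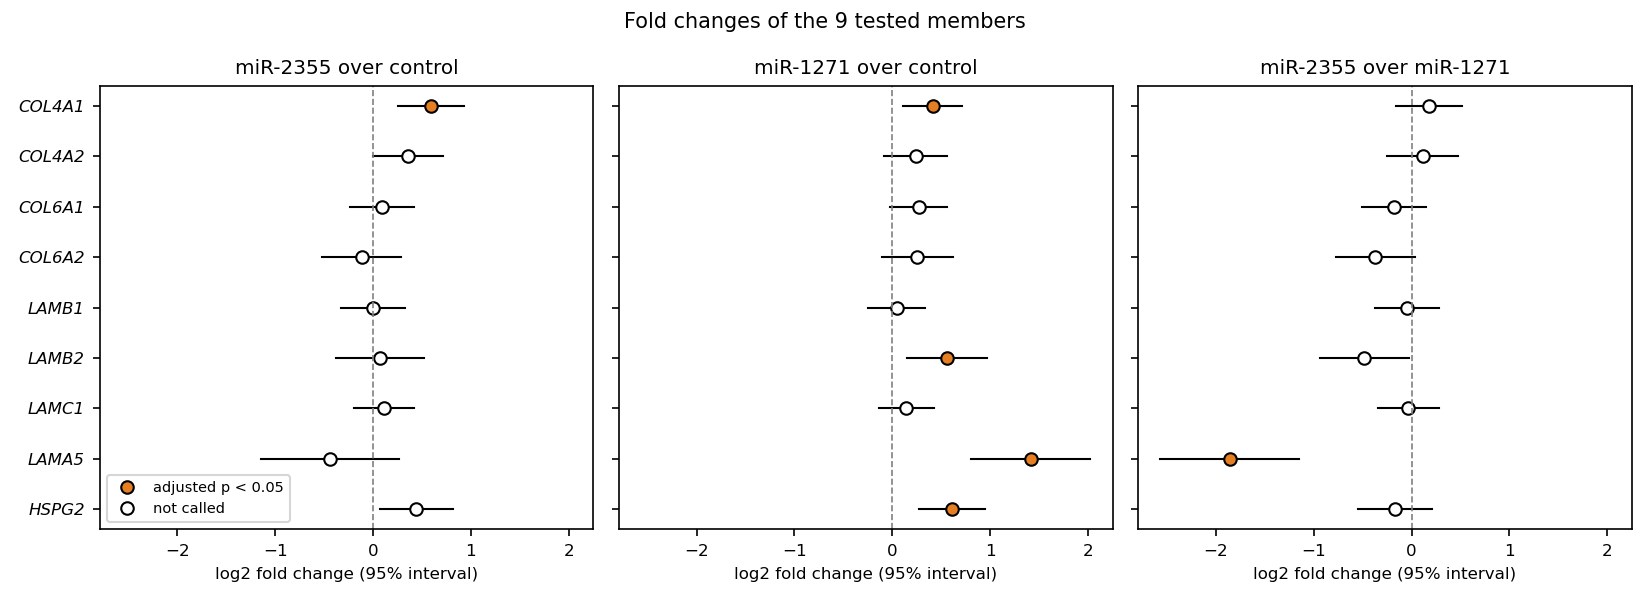
Log2 fold changes with 95% intervals of the 9 tested genes in the 3 contrasts, from 1 edgeR fit of all 8 libraries; filled points have an adjusted p under 0.05. LAMA5 is the farthest from 0 in the miR-1271 over control panel, at 1.41, and in the miR-2355 over miR-1271 panel, at -1.86, while LAMB1 and LAMC1 stay near 0 in all 3.

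LAMA5 encodes the laminin alpha chain of mature epithelial and endothelial basement membranes, including that of the glomerulus, and lies at chr20:62309065-62367312. Its fold change was the largest of the 9 tested members for miR-1271 over control and for miR-2355 over miR-1271. It had 207 and 212 reads with miR-2355, 324, 370 and 794 with miR-1271, against 614, 43 and 245 with the control. On the TMM scale these were 11.1 and 13.6 CPM with miR-2355, 33.5, 36.6 and 62.9 CPM with miR-1271, and 26.1, 9.81 and 11.4 CPM with the control. Every miR-1271 library was above every other library. The miR-2355 libraries lay beside control replicates 2 and 3, and control replicate 1 stood apart at more than the other 2 controls together. The exact 95% counting intervals were 24.1 to 28.2 CPM for control replicate 1 and 7.10 to 13.2 CPM for control replicate 2, and they did not overlap. Such intervals cover counting error only, and they take each read as a separate molecule. Without molecular identifiers several reads can stem from the same molecule, so the intervals may be too narrow.

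LAMA5 rose 2.67-fold with miR-1271 (log2 fold change 1.41 ± 0.29, SE; 95% interval 0.80 to 2.02; edgeR adjusted p = 0.000996). The call held under all 17 alternatives, of which those without a miR-2355 library hardly bear on this contrast. LAMA5 had log2 fold changes of 1.09 to 2.03 there, the lowest without miR-1271 replicate 3 and the highest without control replicate 1. Its fold change with miR-2355 was -0.44 ± 0.33 on the log2 scale (SE; edgeR adjusted p = 0.343), which turned to 0.17 without control replicate 1 (adjusted p = 0.669), so no direction can be given. LAMA5 was the member with the widest spread between replicates: the square root of its fitted dispersion was 24.3%, against 11.4% to 16.7% for the other 8.

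The direct contrast set miR-2355 against miR-1271 and does not use the control means. Of all tested genes, 3.50% were called higher and 2.65% lower in the miR-2355 pulldown (edgeR adjusted p under 0.05). Among the 6598 genes at least as abundant as the faintest tested member, the shares were 5.11% and 4.17%. LAMA5 was the 1 member called, lower with miR-2355 than with miR-1271 by a log2 difference of -1.86 ± 0.33 (SE; 95% interval -2.57 to -1.15; edgeR adjusted p = 0.00399), which is 0.276-fold. It missed the threshold without miR-2355 replicate 1, with a lone miR-2355 library left (-1.70, edgeR adjusted p = 0.0507). None of the 9 was called higher, and in none were both miR-2355 libraries above all miR-1271 libraries, beside 21.1% of all tested genes. In 3 of the 9, COL6A2, LAMB2 and LAMA5, both miR-2355 libraries were below all miR-1271 libraries, as in 20.5% of all tested genes. LAMB2 had a log2 difference of -0.48 ± 0.22 (SE; adjusted p = 0.193), which passed when only these 2 groups were fitted (-0.48, edgeR adjusted p = 0.0162) and without control replicate 1 (-0.48, adjusted p = 0.0241); its adjusted p was highest without miR-2355 replicate 2 (-0.45, adjusted p = 0.493). In the remaining 7 members the log2 difference ran from -0.37 for COL6A2 to 0.18 for COL4A1, and none passed under any alternative run.

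Relative to LAMC1, the gamma chain with which it assembles, LAMA5 reads were 0.0162 and 0.0232 with miR-2355, 0.0519, 0.0540 and 0.101 with miR-1271, against 0.0399, 0.0172 and 0.0213 with the control. The 3 miR-1271 libraries were above all others. The log2 difference was 1.43 for miR-1271 over control (n = 3 against 3) and -1.76 for miR-2355 over miR-1271 (n = 2 against 3). The exact permutation p was 0.1 in each (two-sided, the smallest possible), and 0.3 after adjustment over the 18 ratio comparisons. HSPG2 reads relative to LAMC1 were 1.85 and 1.76 with miR-2355, 2.08, 1.99 and 1.88 with miR-1271, against 1.52, 1.18 and 1.60 with the control. All 5 microRNA libraries were above all 3 controls in this ratio. The two-sided exact permutation p was 0.2 for miR-2355 (n = 2 against 3) and 0.1 for miR-1271 (n = 3 against 3). After adjustment over the 18 ratio comparisons these permutation p-values were 0.45 and 0.3. The log2 difference of 0.34 with miR-2355 was 0.21 without control replicate 2. Ratios between genes also carry transcript length and are read here only between libraries.

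**Figure D3:**
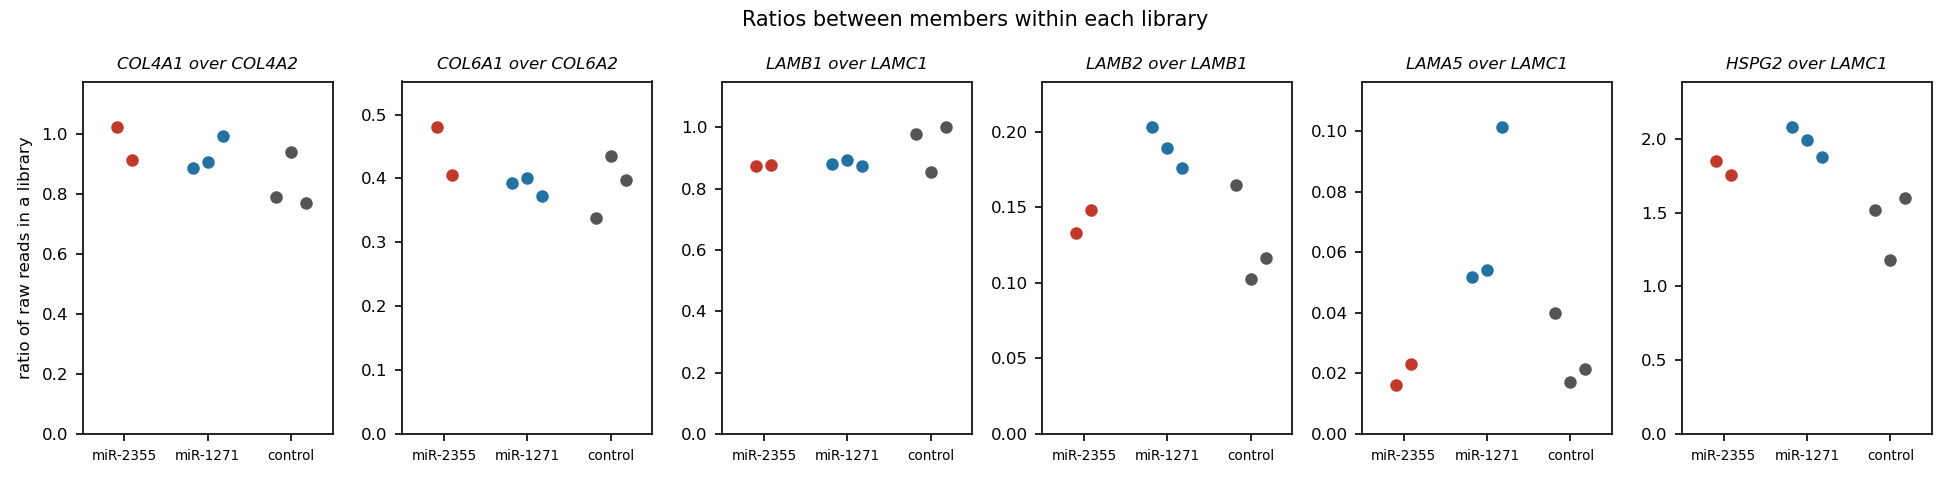
Ratios of raw reads between members within each library (linear axes from 0) for 6 pairs, with miR-2355, miR-1271 and control libraries from left to right in each panel. LAMA5 over LAMC1 and LAMB2 over LAMB1 are highest in the 3 miR-1271 libraries, and HSPG2 over LAMC1 is higher in all 5 microRNA libraries than in the controls.

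COL6A1 and COL6A2, both on chromosome 21, encode 2 of the chains of type VI collagen. COL6A1 was read at 71.7 and 62.7 CPM with miR-2355, at 63.7, 77.8 and 86.7 CPM with miR-1271, and at 70.2, 51.8 and 65.2 CPM with the control. COL6A2 was read at 149 and 155 CPM with miR-2355, at 162, 194 and 232 CPM with miR-1271, and at 208, 119 and 164 CPM with the control. The groups overlapped in both genes in both contrasts with the control. With miR-2355 the log2 fold changes were 0.09 for COL6A1 (edgeR adjusted p = 0.691) and -0.12 for COL6A2 (adjusted p = 0.693), and with miR-1271 they were 0.27 (adjusted p = 0.129) and 0.25 (adjusted p = 0.255). With miR-1271, COL6A1 passed with upper-quartile factors (0.37, edgeR adjusted p = 0.0472) and COL6A2 passed without control replicate 1 (0.46, adjusted p = 0.0271). Without control replicate 2 their values were 0.17 (edgeR adjusted p = 0.353) and 0.077 (adjusted p = 0.726), without miR-1271 replicate 3 they were 0.18 (adjusted p = 0.380) and 0.13 (adjusted p = 0.622), and with library totals 0.13 (adjusted p = 0.501) and 0.11 (adjusted p = 0.645). The read ratio of COL6A1 to COL6A2 was 0.480 and 0.405 with miR-2355, 0.392, 0.401 and 0.373 with miR-1271, against 0.338, 0.435 and 0.397 with the control. The log2 difference of this ratio was 0.19 for miR-2355 over control (exact permutation p = 0.4, n = 2 against 3) and 0.0025 for miR-1271 over control (exact permutation p = 1, n = 3 against 3; both two-sided). Both miR-2355 libraries were above all 3 miR-1271 libraries in this ratio, by a log2 difference of 0.18, which was 0.061 without miR-2355 replicate 1. With all libraries the exact permutation p was 0.1 (two-sided, the smallest possible, n = 2 against 3), and 0.3 after adjustment over the 18 ratio comparisons.

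COL5A1, a chain of fibril-forming type V collagen, was hardly recovered. It had 3 and 6 reads with miR-2355, 5, 5 and 5 with miR-1271, against 2, 0 and 4 with the control. The control library with no read was the shallowest, and a count of 0 there allows up to 0.684 CPM (3 reads), which is above the value of every other library. Pooled over libraries, the ratio of TMM-scaled reads was 2.16 for miR-2355 over control (exact 95% interval 0.686 to 7.37) and 3.81 for miR-1271 over control (1.40 to 11.99), both covering counting error only. In a fit without the low-count filter the log2 fold changes were 1.10 (edgeR adjusted p = 0.612) and 1.85 (adjusted p = 0.131), so no difference was detectable at this depth.

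**Figure D4:**
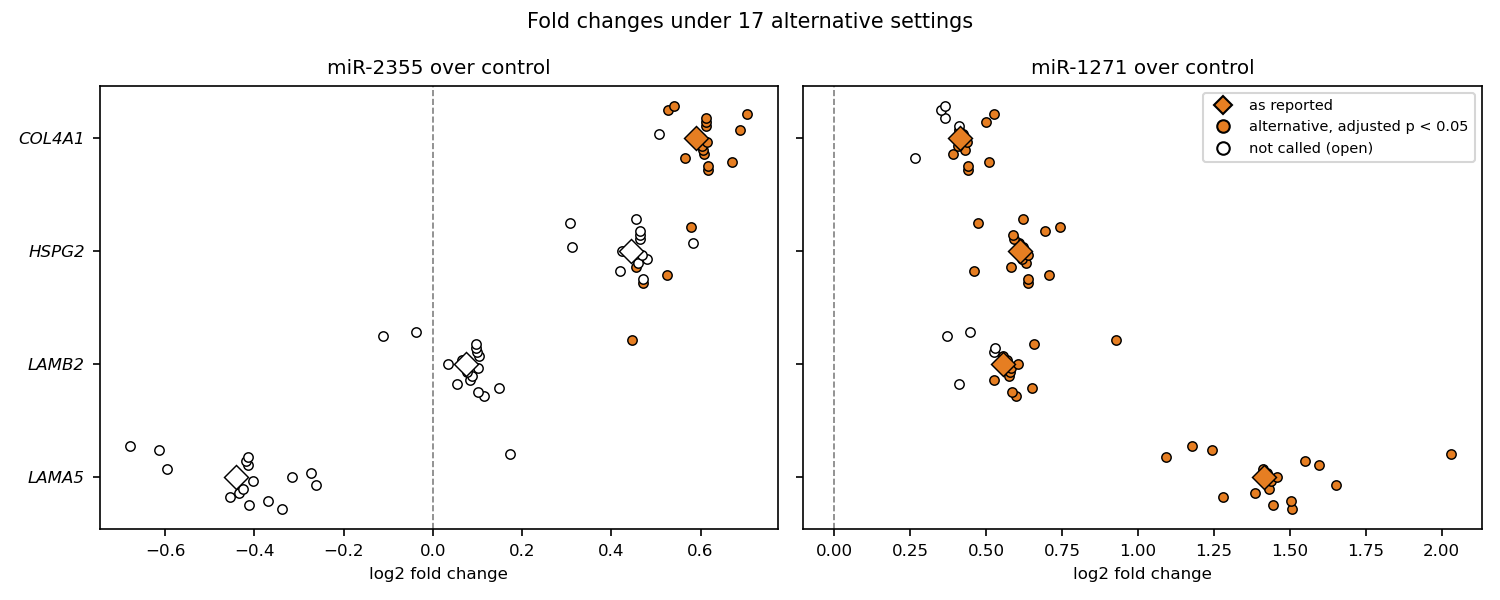
Log2 fold changes of COL4A1, HSPG2, LAMB2 and LAMA5 over control as reported (diamonds) and under 17 alternative settings (circles); filled symbols have an adjusted p under 0.05. With miR-1271, LAMA5 (1.09 to 2.03) and HSPG2 (0.46 to 0.74) pass throughout, while COL4A1 and LAMB2 each fail under 5 of the settings. The settings include leaving out libraries of the other microRNA, which hardly bear on a contrast.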

How the data were processed

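RNA recovered with biotinylated duplexes from 786-0 cells was sequenced in 8 libraries. The authors deposited unnormalized counts of reads per Ensembl gene ID, with a column for each library. BWA, featureCounts, hg38 and GRCh38 are named, per the submitters' processing notes. Versions, strand setting, annotation release and the treatment of reads with several positions remain not given in the sources used here. Unless strand was used, a gene's count can include reads from an antisense neighbour. Positions and sequences are from RefSeq GRCh38.p14, matched by symbol.

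Counts were fitted with edgeR 4.0.16 in R 4.3.3: filterByExpr (minimum count 10), TMM factors, and a quasi-likelihood fit of all 8 libraries with a mean for each group, with Benjamini-Hochberg adjustment over 17351 tested genes. CPM are scaled by TMM. Standard errors are the log2 fold change over the square root of F, and 95% intervals, which are not adjusted for the number of genes, use the fit's degrees of freedom. The procedure was also run on simulated counts with known changes. The share recovered is not given here, so that run does not tell what a missing call can hide. Alternatives were DESeq2 1.42.0, other factors and filters (minimum count 50 or none), thinning to equal depth, a fit of 2 groups, a replicate block, an adjusted p under 0.1, and leaving out each library.

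The members and lists were chosen with earlier results of these data known. All 10 members were named by rule. Of the table's IDs, 0 matched the gene table by Ensembl ID, so 5 further matrix gene lists, the marker lists and the search for genes of similar pattern, all fixed by symbol, were not used. Replicates differed by more than counting noise (chi-square per degree of freedom 6.21 to 21.2). Same-numbered libraries did not deviate together from their group means, with correlations from -0.103 to 0.0185 across genes. Other pairs of libraries from different groups had correlations from -0.0972 to 0.103. The miR-2355 group has 2 libraries, so their deviations mirror each other and their correlations come with opposite signs whatever the pairing. The check is weak there, and numbers were not taken to pair samples.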

Additional observations from a re-analysis of the deposited data

Results flagged for a closer look

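LAMA5 differed between the effects of the microRNAs by a test of the difference itself: the log2 difference of miR-2355 over miR-1271 was -1.86 (edgeR adjusted p = 0.00399), with 12.3 ± 1.8 CPM (SD, n = 2) with miR-2355, 44.4 ± 16.1 CPM (SD, n = 3) with miR-1271 and 15.8 ± 8.97 CPM (SD, n = 3) with the control. Both miR-2355 libraries were below all 3 miR-1271 libraries. Across alternatives the difference ran from -2.01 to -1.51. Its lowest edgeR adjusted p, 9.67e-21, came only from the fit of 37898 genes without the low-count filter. The next lowest was 5.03e-05, with only these 2 groups in the fit. The threshold was missed without miR-2355 replicate 1, with a lone miR-2355 library left (-1.70). The level of LAMA5 in control replicate 1, 26.1 CPM, was the highest of the controls, as for the other tested members. The direct contrast does not use the control means, so leaving out that library could hardly move the difference. It stayed at -1.86, and only the shared spread behind its p-value changed (edgeR adjusted p = 9.02e-05).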

How the results depend on the processing

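Of 459 comparisons of a member's fold change with an alternative (17 settings for each of 9 genes and 3 contrasts), 416 kept direction and side of the threshold, and all reversals were of fold changes that had not passed. The settings include leaving out libraries that are not in the contrast. Those libraries enter only through the shared filter, scaling and spread, so they could hardly move a fold change, and the 416 overstates what was put to a test. Members called higher with miR-2355, 1 as reported, numbered 2 with DESeq2, upper-quartile factors, no filter or an adjusted p under 0.1, and 0 to 4 on leaving out 1 library, the 0 without miR-2355 replicate 1 and the 4 without control replicate 1. Members higher with miR-1271, 4 as reported, numbered 2 with library totals and 2 to 6 on leaving out 1 library, with 2 without miR-1271 replicate 1 or control replicate 2 or 3. Members lower with miR-2355 than with miR-1271, 1 as reported, numbered 2 with only those groups in the fit and 0 to 2 on leaving out 1 library. The replicate block changed none of these counts (1, 4 and 1) and no call of a member; it gave -0.027 for LAMB1 with miR-2355.

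Library totals in place of TMM moved the median of all genes by -0.15 with miR-1271 and by 0.13 in the direct contrast. They gave LAMB1 -0.024 with miR-2355, -0.10 with miR-1271 and 0.079 in the direct contrast, and LAMC1 -0.0069 with miR-1271 and 0.093 in the direct contrast; no filter gave LAMC1 0.0076 there. The share of higher genes among all calls was 41.1% with TMM and 52.0% with upper-quartile factors for miR-2355, and 43.9%, 54.6% and 27.95% with TMM, upper-quartile factors and library totals for miR-1271. In the direct contrast it was 57.0% with TMM, 82.7% with library totals and 68.8% without miR-2355 replicate 2.

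Leaving out 1 library gave, with miR-2355 over control, COL6A1 -0.012 to 0.19, COL6A2 -0.29 to 0.090, LAMA5 -0.68 to 0.17, LAMB1 -0.091 to 0.11 and LAMB2 -0.11 to 0.45. It gave LAMB1 -0.039 to 0.16 with miR-1271, and LAMB1 -0.15 to 0.061 and LAMC1 -0.14 to 0.077 in the direct contrast. Of the ratios, whose leave-one-out values were added after the data had been seen, COL4A1 over COL4A2 ran from -0.019 to 0.14 in the direct contrast, COL6A1 over COL6A2 from -0.097 to 0.085 with miR-1271 and LAMA5 over LAMC1 from -0.59 to 0.018 with miR-2355. Depth limits COL5A1, at 0 to 6 reads per library, and LAMA5 in control replicate 2, at 43 reads.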
